A study of Mus musculus with 4 samples.

Results

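The regions described here were the stretches of the autosomes that were free of TADs in both the 2D-cultured and the 3D-cultured AML12 cells. They were selected on the deposited TAD lists, 1 per culture, by taking the 40 kb bins between the earliest TAD start and the latest TAD end of each autosome over both lists and joining adjacent bins that no TAD covered. This gave 857 stretches, each the overlap of an interval outside TADs in 2D with one in 3D. There were 1443 such intervals in 2D and 1080 in 3D, beside 4221 and 4094 autosomal TADs. AML12 is an established mouse liver cell line. Contacts were measured by in situ Hi-C with the restriction enzyme MboI in 2 replicates of each culture, 4 samples in all. The 2D-cultured cells grew in dishes and the 3D-cultured cells were embedded in Matrigel. Both cultures were treated with 1 mM hydroxyurea to hold the cells at the G1/S boundary, with an exposure of 24 h for the 2D-cultured and 36 h for the 3D-cultured cells, so the exposure time and the culture cannot be told apart. The lists hold positions with no expression values, so the cell type could not be set against its markers here. The authors combined the replicates before they called TADs. There is therefore no replicate spread, no test between cultures was possible, and the values below describe these 2 lists.

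A TAD is a segment of a chromosome whose loci contact each other more often than loci outside it, and the ends of TADs often carry CTCF, a DNA-binding protein at which loop extrusion by cohesin stalls, and the starts of broadly expressed genes. A stretch outside TADs is a segment that the TAD caller assigned to no domain. Mouse chromosomes also carry tandem gene families, such as the vomeronasal receptors that detect pheromones, the alpha-defensins of the intestinal crypt and the major urinary proteins that the liver secretes, whose copies lie side by side and resemble each other so closely that short reads cannot always be placed among them. For each bin the share of unique 50-mers was therefore measured, that is, of sampled 50-base words found once in the genome on either strand.

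The sequences below show gene starts from repeated families and from a gene-dense stretch of unique sequence. Each is the 250 bases just upstream of an annotated gene start in GRCm38, the build that mm10 names, written 5′ to 3′ on the gene's strand. The first pair comes from the longest stretch, chr7:19640001-23280000. Vmn1r115 and Vmn1r127 encode class 1 vomeronasal receptors, and their upstream sequences (chr7:20844986-20845235 and chr7:21319862-21320111, both on the minus strand) differed at 1 base of 250, which is in capitals in the second line.
Vmn1r115: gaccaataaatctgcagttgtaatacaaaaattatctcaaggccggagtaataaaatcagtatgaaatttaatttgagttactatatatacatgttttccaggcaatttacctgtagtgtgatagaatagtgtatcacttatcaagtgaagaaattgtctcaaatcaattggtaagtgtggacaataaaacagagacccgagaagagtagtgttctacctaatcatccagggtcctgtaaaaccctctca
Vmn1r127: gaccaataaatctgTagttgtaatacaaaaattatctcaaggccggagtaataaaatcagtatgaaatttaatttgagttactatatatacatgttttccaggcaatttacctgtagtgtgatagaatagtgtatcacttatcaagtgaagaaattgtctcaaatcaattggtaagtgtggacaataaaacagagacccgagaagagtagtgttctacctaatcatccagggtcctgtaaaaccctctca
The second pair comes from chr8:21040001-21680000. Defa5 and Defa34 encode alpha-defensins, antimicrobial peptides of Paneth cells, and their upstream sequences (chr8:21297189-21297438 and chr8:21665547-21665796, both on the plus strand) also differed at 1 base, again in capitals.
Defa5: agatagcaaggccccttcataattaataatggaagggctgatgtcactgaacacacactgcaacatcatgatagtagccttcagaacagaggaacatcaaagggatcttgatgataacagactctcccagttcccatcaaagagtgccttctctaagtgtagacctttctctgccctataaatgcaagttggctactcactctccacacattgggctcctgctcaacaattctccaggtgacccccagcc
Defa34: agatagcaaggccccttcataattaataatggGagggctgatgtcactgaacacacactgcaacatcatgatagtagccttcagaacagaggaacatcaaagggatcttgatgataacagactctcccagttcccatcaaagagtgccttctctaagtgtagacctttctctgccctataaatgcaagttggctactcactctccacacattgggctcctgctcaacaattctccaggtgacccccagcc
The last sequence is from chr7:45000001-45240000, a stretch chosen for display after its values were seen. Rpl13a encodes a protein of the large ribosomal subunit, its upstream sequence is at chr7:45128762-45129011 on the minus strand, and the capitals mark CpG dinucleotides.
Rpl13a: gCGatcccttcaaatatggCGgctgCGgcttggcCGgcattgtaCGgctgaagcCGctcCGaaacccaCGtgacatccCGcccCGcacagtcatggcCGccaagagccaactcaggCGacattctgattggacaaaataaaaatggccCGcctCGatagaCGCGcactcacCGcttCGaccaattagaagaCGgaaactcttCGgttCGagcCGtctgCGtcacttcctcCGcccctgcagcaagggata
The Rpl13a sequence held 24 CpG, with no identical copy upstream of another protein-coding gene in the span. The vomeronasal pair held 2 CpG each and the defensin pair held none. The Vmn1r127 sequence was identical to those of Gm4177 and Gm4216, which start in the same stretch.

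The stretches covered 126.32 Mb, or 5.27% of the 59915 bins in the span. The shortest measured 40 kb and the longest 3640 kb, and the median was 80 kb (quartiles 80 and 160 kb) and a mean of 147 ± 250 kb (SD, n = 857). A length of 80 kb was the most frequent and was found for 528 stretches, followed by 160 kb for 134 and 40 kb for 57. The distribution had a long tail, in which the 14 stretches of over 800 kb held 24.32 Mb, or 19.3% of the length. An even number of bins was found in 733 stretches (85.5%). The intervals outside TADs had an even number of bins in 96.3% of cases in 2D and 95.3% in 3D, against 44.1% and 46.7% of the TADs. The lengths of the stretches and of the TADs therefore differed in kind, and the part of the TAD caller in this was not tested.

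The stretches made up 54.3% of the length outside TADs in 2D and 73.8% of that in 3D. In 477 of them (55.7%) both lists left out the same interval, to the bin. Of the 1714 edges, 1186 (69.2%) were the end of a TAD in both lists. A stretch was the whole interval of the 2D list in 579 cases and of the 3D list in 667. The TADs that flanked the stretches had a median length of 240 kb in both cultures, close to the medians of 240 and 280 kb for all autosomal TADs of 2D and 3D. The neighbours of a stretch were thus of ordinary size in these lists.

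**Figure D1:**
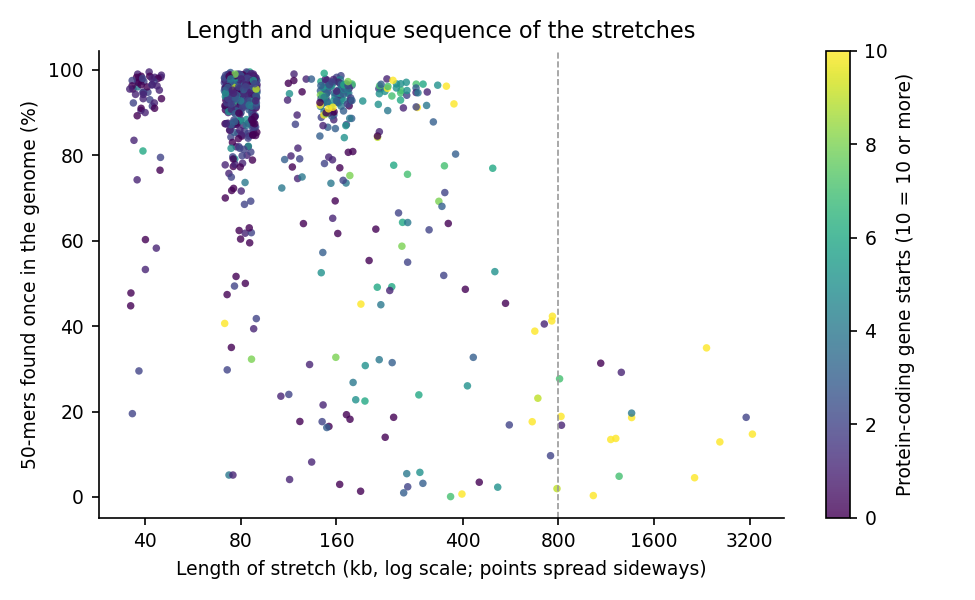
Length of each stretch (x axis, kb, log scale) against its share of unique 50-mers (y axis, %), 1 point per stretch with known sequence, coloured by the number of protein-coding genes that start in it. Stretches of 80 kb crowd near the top of the plot, and the 14 stretches to the right of the dashed line at 800 kb all lie at or below 34.9%.

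Protein-coding genes started in the stretches at 19.3 per Mb (95% Poisson interval 18.5 to 20.04), against 7.22 per Mb (7.11 to 7.34) in bins inside TADs of both lists, a ratio of 2.67. The density in the stretches was the higher one on 19 of 19 autosomes. In all, 2433 of the 20705 protein-coding genes of the span, or 11.8%, started in the 5.27% of bins that the stretches held. Bins outside TADs in only 1 of the lists resembled the stretches, with 20.6 starts per Mb (19.7 to 21.5) where only 2D left them out and 17.4 (16.2 to 18.6) where only 3D did. Such intervals, here and below, cover counting error only and treat genes or bins as independent, although neighbours share sequence and function.

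The genes were spread over many stretches. The median stretch held 2 protein-coding starts, 710 stretches held at least 1, 147 (17.2%) held none, and 63 held no annotated gene of any kind. At least 1 protein-coding start was found in 50.3% of the bins in stretches and in 21.0% of those inside TADs of both. Genes that start in stretches were shorter, with a median of 14.5 kb (quartiles 5.72 and 31.7 kb) against 18.2 kb (6.72 and 51.2 kb) for genes in TADs of both. Provisional names of the Gm or Rik kind, given to loci without a characterised product, belonged to 16.2% of the genes in stretches and to 7.36% of those in TADs of both. With these genes left out the densities were 16.1 and 6.69 per Mb. With bins of under 50% unique 50-mers, described below, left out, the order of the provisional names turned, to 6.17% and 6.998%. The median gene lengths then came close, at 17.8 kb (quartiles 7.76 and 35.6 kb) in the stretches and 18.4 kb (6.78 and 51.8 kb) in TADs of both, but the upper quartile stayed lower in the stretches.

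**Figure D2:**
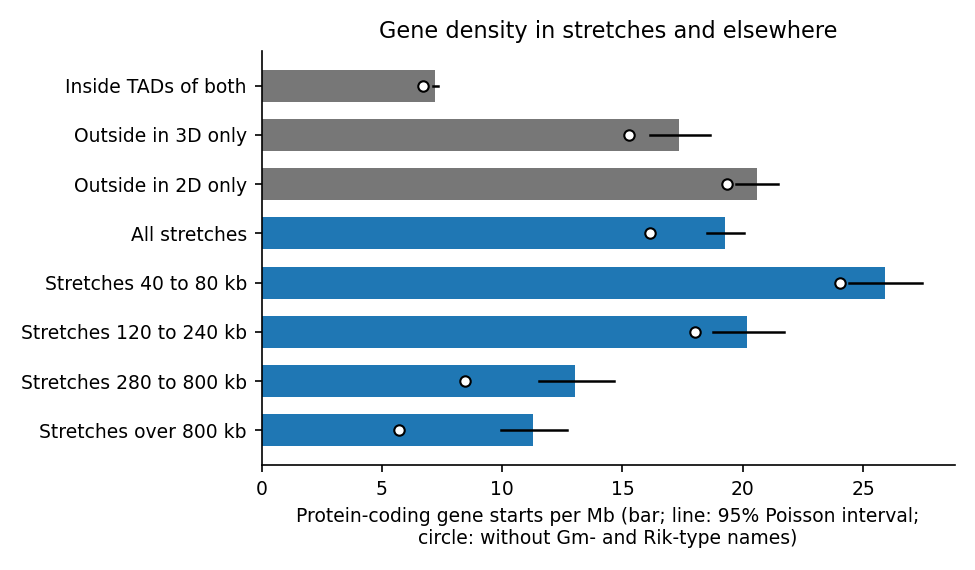
Protein-coding gene starts per Mb (x axis; bars start at 0; lines, 95% Poisson intervals; circles, density without Gm- and Rik-type names) in the bins inside TADs of both lists, outside TADs in 1 list only, in all stretches and in stretches by length. The bar for stretches of 40 to 80 kb reaches 25.9 per Mb and that for stretches of over 800 kb reaches 11.3 per Mb, both above the 7.22 per Mb inside TADs. Without Gm- and Rik-type names the class of over 800 kb stands at 5.72 per Mb, below the 6.69 per Mb inside TADs.

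Short and long stretches differed in gene content and in sequence. The 585 stretches of 40 to 80 kb held 25.9 starts per Mb (24.4 to 27.4), and this fell to 20.2 (18.7 to 21.7) in the 209 stretches of 120 to 240 kb, 13.01 (11.5 to 14.6) in the 49 of 280 to 800 kb and 11.3 (9.97 to 12.7) in the 14 of over 800 kb. Unique 50-mers fell in the same order, from 91.8% to 80.2%, 47.0% and 17.1% of those sampled. Gm- or Rik-type names rose from 7.11% of the protein-coding genes in the shortest class to 10.7%, 35.0% and 49.3%. Without these genes the densities were 24.1, 18.0, 8.46 and 5.72 per Mb. In the longest class this leaves out 49.3% of the genes, which may include copies of named families. The longest class then lay below the 6.69 per Mb inside TADs of both, and the other classes stayed above it. Unprocessed pseudogenes, which arise when a gene is duplicated and loses its function, rose from 0.764 per Mb to 2.09, 6.88 and 10.3. Inside TADs of both lists their density was 0.630 per Mb and the share of unique 50-mers was 90.8%. The shortest stretches were thus close to TADs in both measures and the longest were far from them.

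Over all stretches, 988 of the 3158 bins (31.3%) had under 50% unique 50-mers, against 0.664% of the bins inside TADs of both. Unknown bases made up 4.78% of the stretches and 0.0492% of the TADs of both. How far the placement of reads shaped the TAD lists was not tested, because the lists carry no read counts. The gene density does not rest on the bins with few unique 50-mers. With these bins left out everywhere, an alternative chosen after the data were seen, it was 23.2 per Mb (22.2 to 24.2) in the stretches and 7.20 (7.09 to 7.32) inside TADs of both.

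Each distance from an edge pools different stretches, since those of 40 to 80 kb have no bin beyond the first. The first bin inside an edge held 23.7 starts per Mb (22.6 to 24.9), with 86.1% unique 50-mers, and the first bin beyond it, which belongs to a TAD in at least 1 list, held 20.1 (19.1 to 21.2). The density fell to 14.8 in the next bin beyond the edge and to 12.8 (11.9 to 13.8) in bin 10, still above the mean inside TADs. Of the 1657 first bins inside, 1113 belonged to stretches of 40 to 80 kb and held 25.9 starts per Mb (24.4 to 27.4). The first bins beyond the edges of these short stretches held 20.3 (19.1 to 21.7). In stretches of 120 kb or more the first bin inside held 19.3 (17.5 to 21.2) and the second 17.97 (16.2 to 19.9). The first beyond their edges held 19.7 (17.9 to 21.7). These intervals overlapped, so no peak was seen among these bins next to the edge. Bins further beyond the edge were not split by stretch length. Further inside, the density was 12.8 (9.80 to 16.5) in bin 4 and 8.33 (4.31 to 14.6) in bin 10. In bin 10 inside, 36 bins of long stretches remained and 18.6% of 50-mers were unique. When every TAD was made 1 bin longer at both ends, 272 stretches remained and their density was 14.3 per Mb, 1.78 times that inside TADs. This setting drops all stretches of 40 to 80 kb and the outermost bins of the others.

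**Figure D3:**
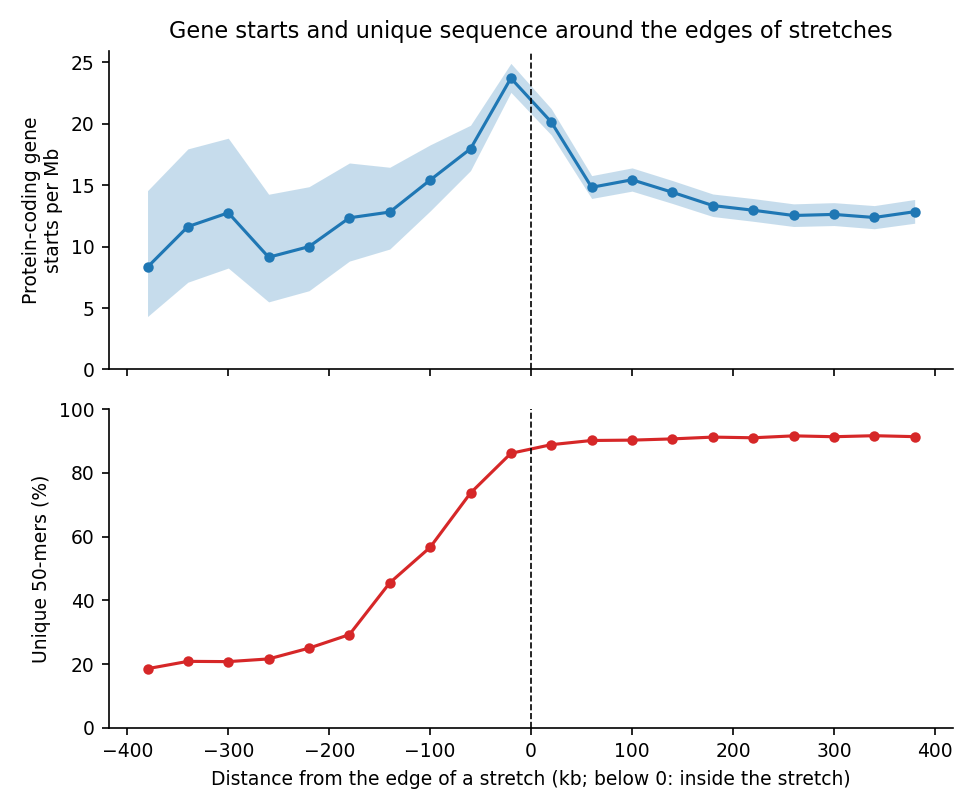
Protein-coding gene starts per Mb (upper panel; band, 95% Poisson interval) and the share of unique 50-mers (lower panel, %) by distance in kb from the edges of the stretches, with the inside of the stretches below 0. Each distance pools different stretches. Gene starts reach 23.7 per Mb in the first bin inside, where 1113 of 1657 bins are from stretches of 40 to 80 kb, and unique 50-mers fall from 86.1% there to 18.6% in bin 10 inside.

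The longest stretch, chr7:19640001-23280000, measured 3640 kb and was the same interval in both lists. It held 102 protein-coding starts, more than any other stretch, and 25 unprocessed pseudogenes. Its bins fell into 2 blocks. The first 440 kb, up to position 20080000, had 51.8 to 96.8% unique 50-mers and held 18 protein-coding genes, among them Apoc2, Apoc4, Apoc1 and Apoe, the cluster of lipid-transport genes that the liver expresses, and Ceacam16, Ceacam19 and Ceacam20 of the carcinoembryonic adhesion family. The other 3200 kb had 0 to 28.0% unique 50-mers, with a median of 1.00%, and held 84 protein-coding genes. By symbol, 49 of them were class 1 vomeronasal receptors, from Vmn1r91 to Vmn1r166. The rest of this block had Gm-type names, among them Gm4177 and Gm4216, whose upstream sequences were identical to that of Vmn1r127. The count of receptors by symbol may therefore be too low. The apolipoprotein genes thus lay in mostly unique sequence at the edge of a stretch whose remainder was repeated. Of the 1176 pairs of promoters among these 49 receptors, 28 were identical over 250 bases and 320 differed at no more than 25 bases, and 32 of the 49 had an identical partner.

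The next 9 stretches by length also lay in sequence with few unique 50-mers. The last place among them was tied at 1080 kb between chr7:7360001-8440000, counted here, and chr7:32080001-33160000 (13.4%, 10 protein-coding genes), described with the secretoglobins. The interval chr12:21560001-24440000 measured 2880 kb and held 2 protein-coding genes, Gm10330 and 9030624G23Rik, beside 24 unprocessed pseudogenes, with 18.6% unique 50-mers. Its neighbour chr12:19160001-20560000 (1400 kb, 29.2%) held 1, Gm21863. Zinc finger genes, which encode DNA-binding proteins of which many repress retroelements, filled chr4:145320001-147880000 (2560 kb, 34.9%) with 18 of its 24 protein-coding genes, from Zfp990, Zfp980, Zfp986 and Zfp987 onwards. The same kind lay in chr2:174960001-177040000 (2080 kb, 4.49%), with Zfp968, Zfp965, Zfp969, Zfp966, Zfp967 and Zfp973 among 30 genes of which 24 had Gm- or Rik-type names.

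The interval chr14:41240001-43640000 (2400 kb, 12.9%) held 48 protein-coding genes, the second highest number, and all 48 had provisional names, such as Gm2832, Gm5798 and Gm7945. It also held 48 unprocessed pseudogenes, the most of these 10 stretches. In chr13:65360001-66880000 (1520 kb, 19.6%) the 4 protein-coding genes, Gm10139, Gm10324, Gm10772 and 2410141K09Rik, were provisional as well. Major urinary protein genes accounted for all 12 protein-coding starts, Mup10 and Mup11 first, of chr4:60520001-61920000 (1400 kb, 18.6%). Class 2 vomeronasal receptors accounted for all 7 of chr7:8560001-9960000 (1400 kb, 4.84%), from Vmn2r40 and Vmn2r39, and for 10 of 11 in chr7:7360001-8440000 (1080 kb, 13.7%), from Vmn2r31 to Vmn2r44. Unknown bases took up 431.9 kb of chr4:145320001-147880000, 350 kb each of chr2:174960001-177040000 and chr4:60520001-61920000, and 250 kb of chr14:41240001-43640000. They took up at most 50 kb of each other stretch counted here. The shares of unique 50-mers cover known sequence only.

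These intervals were not equally long in both lists. In 4 of the 10 counted, the longest of all and those of chr4:145320001-147880000, chr2:174960001-177040000 and chr13:65360001-66880000, the interval outside TADs was the same in 2D and 3D. The 2 vomeronasal intervals of chr7:7360001-8440000 and chr7:8560001-9960000 were separate in 2D, at 1080 and 1440 kb, and were parts of a single interval of 2600 kb in 3D. The major urinary protein interval was 1400 kb long in 2D and 2160 kb long in 3D. By contrast, chr12:21560001-24440000 lay in an interval of 3120 kb in 2D that was cut to 2880 kb in 3D. Without replicate lists these differences have no error to be set against.

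Among the 5 stretches with the most protein-coding starts, the only one not yet described was chr8:21040001-21680000, a 640 kb interval with 17.6% unique 50-mers. It held 25 protein-coding genes, of which 20 encode alpha-defensins, with Defa23, Defa35, Defa25 and Defa30 first in order. The longest stretch without a protein-coding gene was chr14:52760001-53760000, at 1000 kb and 31.3% unique 50-mers. It held 91 gene segments and 14 pseudogenes of T cell receptors, which lymphocytes join into antigen receptor genes. The 2D list left out 1000 kb here and the 3D list 1360 kb.

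Gene families were unevenly represented. Of 44 families and lists, 17 had a larger share of their genes in stretches than the 11.8% of all protein-coding genes, and 15 had none. The 95% Wilson interval lay wholly above that share in 7 and wholly below it in 7. Those below were olfactory receptors, bitter taste receptors, C-type lectins, Hox genes, histones, keratins and keratin-associated proteins. The other families with no start in a stretch were small, with upper bounds from 12.9% to 25.9%. Their counts cannot be told from the share of all genes. Some of these calls rest on a few long stretches. With stretches of over 800 kb left out, the intervals of both classes of vomeronasal receptors and of secretoglobins no longer lay wholly above the share of all genes, which was then 10.6%, and that of class 1 lay wholly below it. Genes of a family often share a stretch and are not independent.

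Among genes of immunity, 20 of the 22 alpha-defensins started in stretches (90.9%, Wilson interval 72.2 to 97.5%), all in the 1 interval named above and all in bins with under 50% unique 50-mers. Killer lectin-like receptors, which natural killer cells use to read MHC class I molecules, started in stretches in 16 of 22 cases (72.7%, 51.8 to 86.8%). They lay in 3 stretches. The intervals chr6:129560001-129800000, with Klre1, Klrd1, Klrk1 and Klrc3 first, and chr6:130000001-130360000, with Klra6, Klra4, Klra8 and Klra9 first, had 84.2% and 77.5% unique 50-mers. Only 3 of the 16 genes lay in a bin with under 50%. This family was thus in stretches of largely unique sequence, unlike the defensins. Type I interferons, the antiviral cytokines, counted 5 of 20 (25%, 11.2 to 46.9%), Ifnz, Ifna7, Ifna11, Ifna6 and Ifna5, all in 1 stretch of 80 kb. Chemokines counted 5 of 35, of which Ccl21b, Ccl27b, Ccl19 and Ccl21a shared chr4:41840001-42840000, an interval of 1000 kb with 0.316% unique 50-mers. Beta-defensins counted 5 of 42, all in mostly unique bins, and MHC H2 genes 3 of 34. C-type lectins (0 of 30), Ly6 genes (0 of 17) and Skint genes (0 of 11) had no start in a stretch.

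Among receptors of smell and taste, class 1 vomeronasal receptors counted 50 of 205 (24.4%, 19.0 to 30.7%) and class 2 counted 22 of 120 (18.3%, 12.4 to 26.2%). Of these, 49 and 21 started in bins with under 50% unique 50-mers. The class 1 genes lay in 2 stretches and the class 2 genes in 5. With stretches of over 800 kb left out the shares were 0.641% (0.113 to 3.54%) for class 1 and 4.85% (2.09 to 10.9%) for class 2. Olfactory receptors, the largest gene family of the mouse, counted 18 of 1087 (1.66%, 1.05 to 2.60%) in 7 stretches, among them Olfr1506, Olfr142, Olfr1271 and Olfr1272. They were inside TADs of both lists in 1022 cases. No start in a stretch was found for bitter taste receptors (0 of 35), trace amine receptors (0 of 15) or Mas-related receptors (0 of 18). With bins of under 50% unique 50-mers left out, the shares were 0.671% for class 1, 1.10% for class 2 and 1.12% for olfactory receptors, against 9.66% of all genes, and the intervals of the 3 families overlapped.

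Among secreted proteins, major urinary proteins counted 17 of 22 (77.3%, 56.6 to 89.9%), in the interval named above and in chr4:59960001-60360000 with Mup4, Mup6, Mup7 and Mup2 first. Of the 17, 14 started in bins with under 50% unique 50-mers, and with stretches of over 800 kb left out the share was 50.0% (23.7 to 76.3%). Secretoglobins, small proteins of glands and airways, counted 13 of 34 (38.2%, 23.9 to 55.0%) in 4 stretches, and 10 of them shared chr7:32080001-33160000 with Scgb1b10, Scgb2b11, Scgb1b11 and Scgb2b12 first. With stretches of over 800 kb left out their share was 12.5% (4.34 to 31%), against 10.6% of all genes. Apolipoproteins counted 4 of 14 (28.6%, 11.7 to 54.6%), the cluster at the edge of the longest stretch. Cystatins and stefins counted 3 of 13 in 2 stretches. The Serpina genes, which encode protease inhibitors of plasma (0 of 23), the prolactin family (0 of 25) and kallikreins (0 of 26) had none, the Serpinb genes 1 of 26 and the Wfdc and Spink inhibitors 1 of 30.

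Among nuclear and housekeeping genes, zinc finger genes counted 82 of 417 (19.7%, 16.1 to 23.7%) and were spread over 36 stretches, with Zfp451, Zfp408, Zfp968 and Zfp965 first in order. Of the 82, 24 lay in bins with under 50% unique 50-mers, and with all such bins left out the share was 15.2% (12.0 to 19.2%). Cytosolic ribosomal proteins counted 13 of 96 (13.5%, 8.09 to 21.8%) over 11 stretches, with Rps6, Rpl9 and Rplp0 first, and subunits of the respiratory chain counted 10 of 78 (12.8%, 7.12 to 22.0%) over 10 stretches, with Ndufc1, Cox6a1, Atp5j2 and Ndufa4 first. Both shares were close to the 11.8% of all genes and none of these 23 genes lay in a bin with under 50% unique 50-mers. Histones counted 2 of 67 and Hox genes 0 of 39, although 10 and 26 histone genes started in bins that only 2D or only 3D left outside TADs.

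Among epithelial genes, keratins (0 of 49) and keratin-associated proteins (0 of 57) had no start in a stretch, while late cornified envelope and Sprr genes counted 6 of 36, all in chr3:92120001-92360000 with Sprr2a1, Sprr2a2, Sprr2a3 and Sprr2b first. Psg and Ceacam genes counted 6 of 28. Among genes of metabolism, solute carriers counted 43 of 372 (11.6%, 8.69 to 15.2%), close to all genes, in 42 stretches. Cytochromes P450 counted 7 of 100, with Cyp2d22, Cyp2d11, Cyp2d10 and Cyp2d9 in chr15:82360001-82520000. UDP-glucuronosyltransferases (0 of 22) and carboxylesterases (0 of 19) had none. Of a list of 52 genes of hepatocyte identity and function, 3 started in stretches (5.77%, 1.98 to 15.6%). They included Cyp8b1, the sterol 12-alpha-hydroxylase of bile acid synthesis (gene at chr9:121914356-121916305, stretch of 160 kb), and Nr1i2, the pregnane X receptor (chr16:38248323-38294824, 80 kb). The bins of these 2 genes had 89.0% and 97% unique 50-mers. The intervals around both were the same in 2D and 3D.

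**Figure D4:**
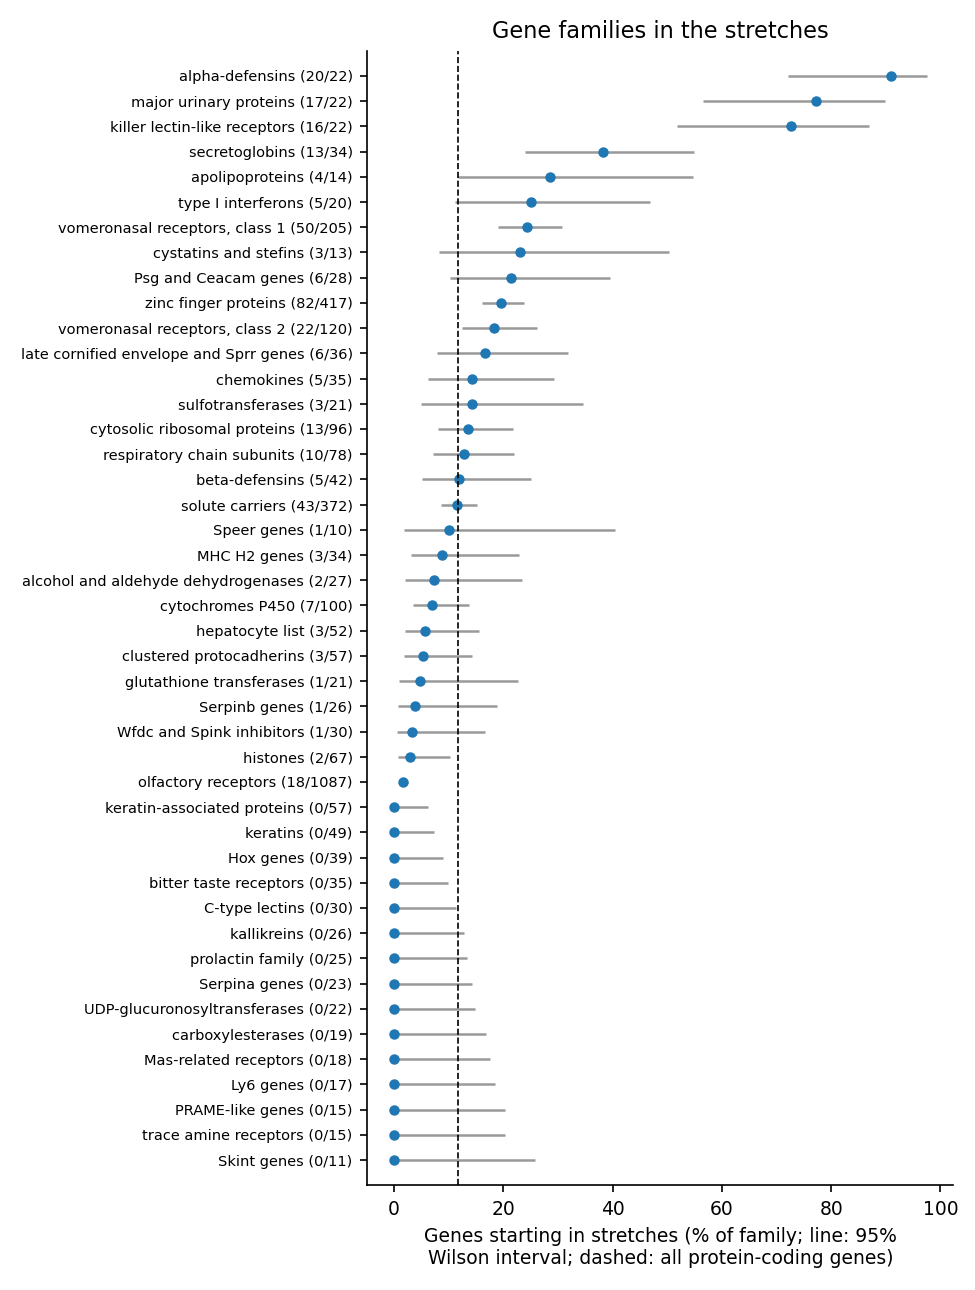
Share of each gene family that starts in stretches (x axis, % of its genes in the span; points; lines, 95% Wilson intervals), with the count beside each name and the 11.8% of all protein-coding genes as a dashed line. Alpha-defensins, major urinary proteins and killer lectin-like receptors lie far to the right, at 90.9%, 77.3% and 72.7%, and olfactory receptors and Hox genes lie at or near 0.

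The promoters differed between short and long stretches. A promoter was taken as the 250 bases upstream of the annotated start and was called CpG-rich when its GC content exceeded 50% and its CpG count exceeded 0.6 of that expected from its bases. In stretches of 40 to 80 kb 50.4% of promoters (47.6 to 53.3%) were CpG-rich, in those of over 800 kb 2.19% (1.01 to 4.69%), and inside TADs of both lists 36.8% (36.0 to 37.5%). In stretches with 80% or more unique 50-mers the share was 50.8% (48.4 to 53.1%), and in those with under 50% it was 7.57% (5.65 to 10.1%). Length and unique sequence go together in the stretches and were not separated here. Over all stretches the share was 38.8% (36.9 to 40.8%). In bins that only 2D left outside TADs it was 47.0% (44.9 to 49.1%), and in those that only 3D left outside it was 37.8% (34.4 to 41.2%). The stretches as a whole and the bins of only 3D were therefore close to TADs in this measure. A high share was found in the short stretches and in the bins of only 2D. An identical promoter upstream of another protein-coding gene of the span was found for 179 of 2430 genes in stretches (7.37%, 6.39 to 8.47%) and for 54 of 15303 in TADs of both (0.353%, 0.271 to 0.460%). In stretches of over 800 kb the share was 36.5% (31.02 to 42.3%) and in those of 40 to 80 kb 1.48% (0.923 to 2.35%).

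Genes outside the protein-coding class were unevenly represented as well. Unprocessed pseudogenes started in stretches in 507 of 1990 cases (25.5%, 23.6 to 27.4%), which is more than the 8.995% (8.42 to 9.60%) of 9105 processed pseudogenes, the copies left by reverse-transcribed mRNA. T cell receptor segments counted 97 of 226 (42.9%, 36.6 to 49.4%), 91 of them in the interval described above, while 0 of 264 immunoglobulin segments did (Wilson upper bound 1.43%). Genes for miRNAs counted 161 of 2046 (7.87%), and long intergenic RNAs counted 263 of 5198 (5.06%, 4.50 to 5.69%), close to the 5.27% of bins in stretches. Both shares lay below the 10.2% of genes of every biotype that started in stretches. The T cell receptor count thus came mostly from a single interval, and its difference from the immunoglobulin count was not tested.

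The stretches were somewhat richer in GC than TADs. GC content averaged 43.3% ± 3.63 (SD over bins) in the stretches and 41.7% ± 4.07 inside TADs of both, and was higher in the stretches on 18 of 19 autosomes. With bins of under 50% unique 50-mers left out the GC averages were 43.9% and 41.7%. By length, GC was 44.2% in stretches of 40 to 80 kb and 41.7% in those of over 800 kb. Repeats, taken as the soft-masked bases, averaged 38.3% ± 14.4 and 33.2% ± 12.6. This order turned when bins with under 50% unique 50-mers were left out, with 32.8% in the stretches and 33.1% inside TADs of both. MboI sites (GATC) averaged 101.8 ± 20.02 and 99.5 ± 14.9 per bin, higher in the stretches on 12 of 19 autosomes, and turned likewise to 98.2 and 99.4. The letters CCAGGGGGC, taken from the core of the CTCF motif and read on both strands, were found in 19.3% of the bins in stretches and in 17.8% of those inside TADs of both, against 18.3% of all bins in the span. In stretches of 40 to 80 kb they were found in 25.4% of bins and in those of over 800 kb in 10.7%. Bins that only 2D or only 3D left outside TADs held them in 25.6% and 20.7% of cases. With bins of under 50% unique 50-mers left out, the shares were 24.1% in the stretches and 17.9% inside TADs of both. Such a match is a run of letters and no measured binding.

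The stretches were found along all autosomes, from 21 on chromosome 19 to 67 on chromosome 7. They covered 3.39% of the span of chromosome 1 and 10.7% of that of chromosome 7, with 9.33% on chromosome 14 and 7.46% on chromosome 12. Of chromosome 7, 5.03% lay in stretches of up to 800 kb, so more than 50% of its stretch length lay in the few long ones. The 14 stretches of over 800 kb were on chromosomes 2, 4, 7, 12, 13 and 14. Mouse chromosomes have their centromere at the start. With each chromosome cut into 10 parts of equal length, the first part held 5.72% of the stretches (4.35 to 7.48%) with 7.62% of the bins, the second part held 12.7% (10.7 to 15.1%) with 10.3%, and the last held 10.9% (8.94 to 13.1%) with 10.2%. The share of bins in stretches was 8.67% in the second part and 3.98% in the seventh, and the median length was 80 kb in all 10. Neighbouring stretches lay a median of 1280 kb apart (quartiles 440 and 3510 kb), with 104 of 838 neighbours no more than 200 kb apart and the widest distance at 27.4 Mb.

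**Figure D5:**
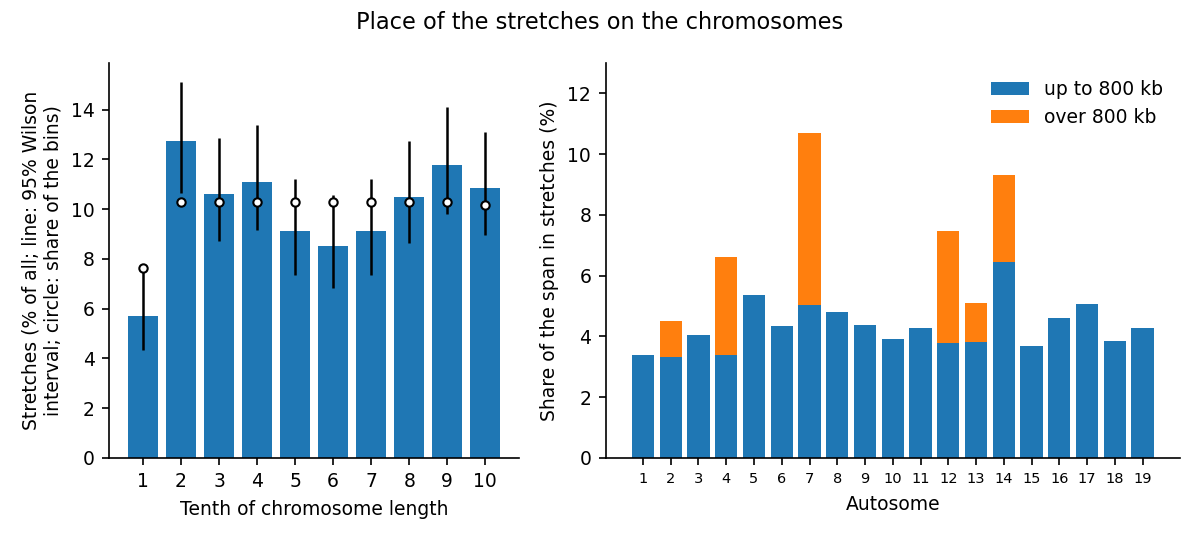
Left, share of the 857 stretches in each of 10 equal parts of the chromosomes counted from the centromere (bars, %; lines, 95% Wilson intervals; circles, share of the bins of the span). Right, share of the span of each autosome in stretches (%), in blue for stretches of up to 800 kb and in orange for longer ones, with chromosome 7 highest at 10.7%.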

How the data were processed

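Contacts in AML12 cells were mapped by in situ Hi-C, with 2 replicates per culture. The deposited values are neither counts nor signal but other values, namely TAD positions. Per the labels and the paper's methods, the authors mapped reads to mm10 with Bowtie2 (2.2.9), combined the replicates, normalized 40 kb matrices with ICE, equalized the depth per chromosome and called TADs with Armatus (gamma 0.8). The lists give no score or read count, so the reads behind a single TAD cannot be read from them; the study states library totals, which are not repeated here.

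The stretches, families and lists were chosen with earlier results of these data known. Positions are printed 1-based. Genes (GENCODE M21) were placed by their start. Families were matched by symbol, so a member with a provisional name was not counted. The patterns for apolipoproteins and the respiratory chain were corrected after their matches were seen, to drop genes of other kinds. Bases, soft-masked repeats, MboI sites and promoters were read from GRCm38.p6. The 50-mers were sampled every 100 bases and counted over all chromosomes and unplaced sequence. The reads were mapped at up to their full length, so this share is a stand-in. Shares carry 95% Wilson and counts 95% exact Poisson intervals. No test was run. Named were the 10 longest stretches, the 5 with the most protein-coding starts, the longest without one, up to 6 genes of each, up to 4 of each family, and the genes of the hepatocyte list in a stretch. Some genes that this rule names are not reported here. Other names were chosen after their values were seen. Python (3.11.15), numpy (2.4.6), pandas (2.3.3), scipy (1.17.1) and numba (0.67.0) were used. The joining step was tested on simulated lists that shared the same gaps, and returned 741 of 741 stretches. Gaps that differ between the lists were not simulated. Alternatives changed the span, the length limits, unknown bases, the ends of TADs and the placing and class of genes. The contact matrices and RNA-seq data were not analysed here.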

Additional observations from a re-analysis of the deposited data

How the results depend on the processing

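No paired analysis was possible because 1 TAD list per culture was called on combined replicates, and for the same reason no replicate could be left out. Each alternative kept the higher gene density in the stretches. With every TAD 1 bin longer at both ends, 272 stretches covered 2.51% of the span, held 4.16% of protein-coding starts at 14.3 per Mb (1.78 times the density in TADs), and 7.72% lay in the last of 10 equal parts of a chromosome. Their bins had 44.2% repeats, 42.5% GC, 105.5 MboI sites, 44.5% unique 50-mers and 0.175 CTCF core motifs. With stretches of at most 800 kb these were 4.30% of the span, 10.6% of starts, 21.2 per Mb, a ratio of 2.93, 35.6% repeats, 43.6% GC, 100.2 sites, 78.3% unique 50-mers and 0.264 motifs. With bins of under 50% unique 50-mers left out (chosen after seeing the data) they were 3.57%, 9.66%, 23.2 per Mb, 3.22, 32.8%, 43.9%, 98.2, 91.0% and 0.292. With chromosome X added they were 5.93% of the span, 17.3 per Mb, 2.44, 41.5%, 42.8%, 103.0, 61.5% and 0.215. With bins that hold unknown bases left out they were 4.94%, 20.3 per Mb, 2.82 and 103.8 sites. Gene bodies in place of starts gave 23.0 per Mb, 3.01 and 14.0%, genes without provisional names 16.1 per Mb, 2.41 and 10.8%, and genes of every biotype 41.3 per Mb, 2.18 and 10.2%. Of 87 planned study-wide values, 46 counted as unchanged and 41 as moved, and of 13 added ones 4 and 9. Of 264 planned values for single families, 240 stayed within the counting interval of the reported value and 24 moved beyond it. Of 43 added family values 36 stayed and 7 moved. Families with no start in a stretch stayed at 0 throughout and count among those that stayed. With stretches of at most 800 kb the share was 0% for apolipoproteins, 50.0% for major urinary proteins, 12.5% for secretoglobins and 4.85% for class 2 vomeronasal receptors, since this setting leaves out the intervals that hold them. With TADs longer by 1 bin, killer lectin-like receptors stood at 50.0% and cytosolic ribosomal proteins at 4.17%. Clustered protocadherins stood at 5.26% (1.81 to 14.4%) by their starts. By gene bodies they stood at 36.8% (25.5 to 49.8%), against 14.0% of all genes in that setting. Their 3 starts in stretches lay in 1 stretch. Genes of such a cluster are not independent, so this interval cannot show an enrichment of the family. The lists give no read count for a single TAD, so no error from depth could be attached to a value.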

Other observations

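Chromosome X, which the counts above leave out, held a larger share of such stretches. Its 98 stretches covered 25.68 Mb, or 15.4% of its span, with a median length of 80 kb and a longest of 2640 kb. They held 193 of its 944 protein-coding starts (20.4%), at 7.52 per Mb (95% Poisson interval 6.49 to 8.65) against 4.42 (4.05 to 4.81) inside TADs of both lists. Unique 50-mers averaged 35.0% in the bins of these stretches and 84.0% inside TADs of both. The longest, chrX:26920001-29560000, had 0.964% unique 50-mers and 400 kb of unknown bases, and its 6 protein-coding genes, among them Gm6121 and Gm10230, had provisional names.

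Gene-dense stretches of ordinary sequence, chosen for display after their values were seen, included chr7:45000001-45240000 and chr17:33880001-34040000. The first measured 240 kb with 97.5% unique 50-mers and 20 protein-coding starts, among them Rpl13a, Fcgrt (the neonatal Fc receptor) and Tead2 (a transcription factor of the Hippo pathway). The second measured 160 kb with 90.9% unique 50-mers and 17 starts, among them Daxx, Tapbp (tapasin, which loads peptides on MHC class I), H2-K1 and Rps18. Both were the same interval in 2D and 3D.

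The intervals outside TADs differed in length between the lists around the stretch of Mup4, Mup6, Mup7, Mup2 and Mup8 (chr4:59960001-60360000), where 2D left out 400 kb and 3D left out 2160 kb. The second Mup interval lay within the same 2160 kb. The difference was not tested, since there is 1 list per culture.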
